A study of Mus musculus with 2 samples.

Results

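Interferon-stimulated genes other than Isg15 were followed across the cell types of mouse bone marrow. The list held 39 genes, set by name with earlier results of these data known, and 37 of the 39 were found by symbol among the 32285 genes of the count matrices. Mx1 and Mx2 were not analysed here. Single-cell RNA was counted as unique molecular identifiers (UMIs, 1 for each captured transcript) with 3' chemistry in 2 libraries. The control library, labelled WT, came from a littermate that was Ddx41fl/fl but carried no VavCre and had intact cGas. The double knockout (DKO) library came from a VavCre:Ddx41fl/fl cGas-/- mouse, which lacks the DNA sensor cGAS in the whole body and the RNA helicase DDX41 in cells that carry VavCre. VavCre is driven by Vav regulatory elements and is active in blood cells and, per the study, also in oocytes and endothelial cells. By design, stromal cells lack cGas but not Ddx41, and their Ddx41 level is not given here. Both animals were 2 months old. With 1 library per genotype there was no replicate and no test between genotypes, the effects of the 2 deletions could not be told apart, and every interval below is a 95% interval that covers counting error only.

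Type I interferons are released when cells sense foreign or misplaced nucleic acid. They bind a receptor made of IFNAR1 and IFNAR2, whose kinases JAK1 and TYK2 phosphorylate STAT2. STAT2 joins IRF9 in a complex that binds interferon-stimulated response elements in the promoters of many antiviral genes. cGAS makes a cyclic dinucleotide on binding double-stranded DNA, which activates STING and leads to interferon production. The genes followed here encode products of several kinds: IFIT proteins that bind foreign RNA, oligoadenylate synthetases that activate RNase L, IFITM proteins that block virus entry at membranes, tetherin (Bst2), viperin (Rsad2), immunity-related and guanylate-binding GTPases, and the DNA-binding PYHIN proteins.

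The DNA letters that this complex reads were visible upstream of several of the genes. The words GAAA and GAAA with any 2 bases between, searched on both strands, were used as a simple stand-in for the response element. RefSeq promoters on GRCm38.p6, the build of the count files, run from 250 bases before to 50 after each annotated start, and 29 of the 37 genes had one. Of these 29 genes, 17 (58.6%) held the word, beside 3.99% of the 27025 genes with such a promoter and 3.44% of all 32851 promoters. The pair TTC and GAA with 3 bases between, which resembles the gamma-activated site, was found in 9 of the 29 (31.0%), beside 9.55% of all genes and 8.30% of all promoters. The 7 stretches below are shown because their words lie wholly upstream of the start and they span the IFIT, synthetase, membrane, viperin, GTPase and signaling groups. Each runs 5′ to 3′ on the strand of its gene, and capitals mark the GAAA-type word or its reverse complement.
Ifit1 (chr19:34640760-34640838, plus strand): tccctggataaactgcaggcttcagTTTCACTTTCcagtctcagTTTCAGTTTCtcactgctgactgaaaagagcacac
Ifit3 (chr19:34583348-34583441, plus strand): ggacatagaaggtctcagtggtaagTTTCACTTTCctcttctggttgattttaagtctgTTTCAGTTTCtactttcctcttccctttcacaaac
Oas3 (chr5:120777700-120777759, minus strand): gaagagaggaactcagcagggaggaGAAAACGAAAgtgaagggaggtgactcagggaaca
Bst2 (chr8:71537562-71537627, minus strand): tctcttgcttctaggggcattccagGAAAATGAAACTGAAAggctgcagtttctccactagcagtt
Rsad2 (chr12:26456538-26456597, minus strand): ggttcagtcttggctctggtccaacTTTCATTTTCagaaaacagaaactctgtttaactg
Gbp7 (chr3:142530258-142530317, plus strand): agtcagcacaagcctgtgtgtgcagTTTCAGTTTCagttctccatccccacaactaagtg
Stat2 (chr10:128270251-128270310, plus strand): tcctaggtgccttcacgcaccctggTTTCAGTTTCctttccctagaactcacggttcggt
Ifit1 and Ifit3 each carried the word 2 times, Bst2 carried 2 words that overlap, and the other 4 carried it once. A match is a string of letters and not a measured binding site, and these promoters were not assayed here.

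The control library held 18561 cells and the DKO library 13729 after filtering, with median depths of 4858 and 6904 UMIs per cell. They shared 75 barcodes, and the cells of the control were called here from all its droplets while the DKO file held called cells only. Clusters were named from fixed marker lists, with the suffix "-like", and the interferon genes were kept out of the clustering. Macrophage-, megakaryocyte- and stromal-like cells were shallow, with median depths of 860 to 1485 UMIs, and 8.62 to 26.3% of their UMIs came from hemoglobin genes. Natural killer cells were not separated from the T-like cluster, whose leading genes included Gzma. The targeted gene Ddx41 had, over all cells, 20.3 counts in each 1000000 UMIs (CPM) of the control library against 8.0 CPM for the DKO. Cgas had 13.6 and 7.25 CPM, and since 3' counting can read transcripts with an upstream deletion, this residue is no check of the cGas-/- label. Fewer UMIs of a gene can mean fewer cells or less RNA per cell, and class sums do not separate these.

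Together, the 37 genes were lower in the DKO library in each of the 17 classes with at least 50 cells per library. In the whole marrow their sum was 2851 CPM for the control against 1570 CPM for the DKO library. The log2 ratio, DKO over control, was -0.86, with an interval from -0.87 to -0.85. Whole-marrow ratios also carry the different mix of classes in the libraries. Hemoglobin genes made up 28.6% of control and 36.3% of DKO UMIs. The part of these differences in the ratio was not tested. The mature neutrophil-like class had the lowest ratio of the sum, -1.31, from 6654 control to 2684 DKO CPM. The highest was in megakaryocyte-like cells, -0.12 with an interval from -0.21 to -0.02, at 2178 and 2010 CPM. Leaving out Ifitm1, Ifitm2 and Ifitm3, which are abundant in myeloid cells, the whole-marrow ratio was -0.75. Without these 3 genes the megakaryocyte-like interval ran from -0.25 to 0.01 and so included 0.

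**Figure D1:**
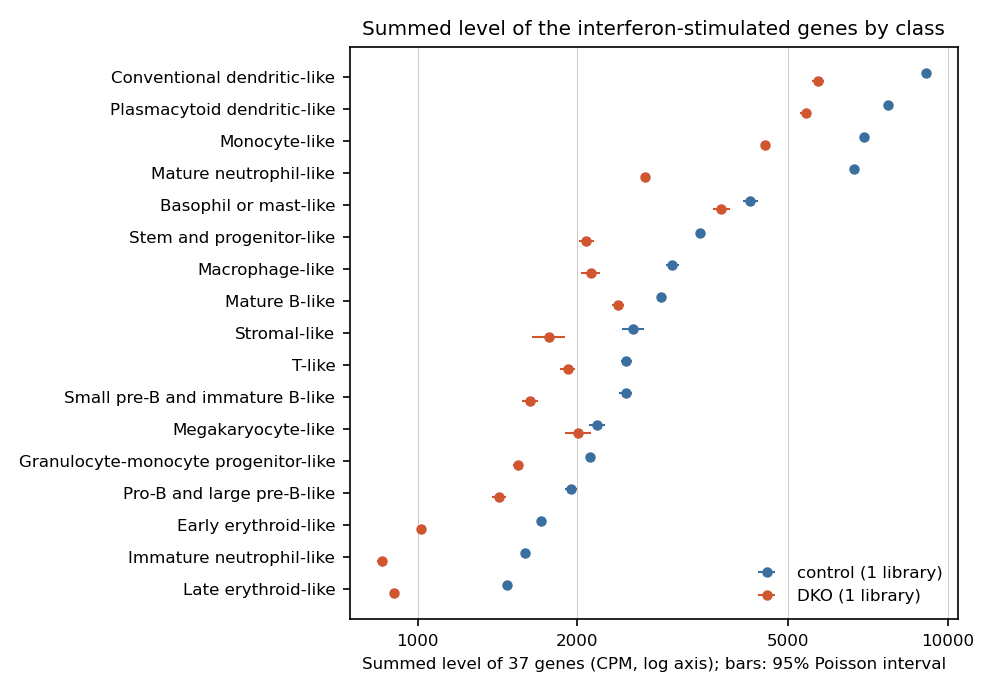
Summed level of the 37 interferon-stimulated genes (x axis, CPM, log scale) in 17 marrow classes (y axis), as points for the control and DKO library with 95% Poisson intervals. The DKO point lies left of the control point in all 17 classes, with the widest gap in mature neutrophil-like cells (6654 against 2684 CPM) and the narrowest in megakaryocyte-like cells (2178 against 2010 CPM).

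The cell type that carried a gene at its highest level differed from gene to gene. In the control library, 13 of the 37 genes peaked in conventional dendritic-like cells, 8 in mature neutrophil-like, 6 in plasmacytoid dendritic-like and 3 in megakaryocyte-like cells. The other 7 genes peaked in 6 further classes. Bst2, which encodes tetherin and is used as a surface marker of plasmacytoid dendritic cells in the mouse, reached 3800 CPM in plasmacytoid dendritic-like cells of the control and 2571 CPM in those of the DKO library. Ly6e, a membrane protein that limits entry of some viruses, was highest in the same class at 1640 and 1343 CPM. Ifitm3 was highest in conventional dendritic-like cells, at 2691 and 1946 CPM. Ifitm2 was highest in mature neutrophil-like cells, at 1767 and 787 CPM.

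Some of the other genes peaked in erythroid-, T- and basophil or mast-like cells. Rsad2 and Isg20, an exonuclease of single-stranded RNA, were highest in late erythroid-like cells of the control library, at 513 and 590 CPM. The upper limit on free RNA in that class and library, set by neutrophil genes, allowed 1.40% of the Rsad2 level and 0.81% of the Isg20 level. Ifi27, which encodes a mitochondrial protein linked to cell death, peaked in early erythroid-like cells at 170 CPM. Gbp7 was highest in T-like cells, at 67.5 control and 83.2 DKO CPM. The peak of Ifitm1 was in basophil or mast-like cells, at 1282 and 1468 CPM, in only 107 and 64 cells.

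The comparison between genotypes was made in the 6 classes with at least 500 cells in each library, for genes with a mean of at least 20 CPM and at least 50 UMIs in the class. A gene that is high in 1 library only can pass this filter through that library, so counts over passing genes describe and do not support a direction. Of 89 pairs of a gene and a class that passed, 46 were at least 1.5-fold lower in the DKO library and 0 at least 1.5-fold higher. Over all genes tested, the share at least 1.5-fold lower ran from 1.04% in immature neutrophil-like to 27.2% in late erythroid-like cells, and the share at least 1.5-fold higher from 0.677% in early erythroid-like to 8.25% in mature B-like cells. In 2 or more classes, 12 genes of the list were at least 1.5-fold lower. The shares above are per class, and no share of all genes lower in 2 or more classes was computed to set beside this count. The 7 genes Ifit2, Ifit3, Oas1a, Igtp, Gbp2, Ifi44 and Lgals3bp passed in no class. With no filter, the number of the 37 genes below a ratio of 0 was 36 in mature neutrophil-like cells, where 54.7% of all genes were below 0, and 34 in immature neutrophil-like cells (40.5%). It was 32 in monocyte-like (43.2%), 35 in mature B-like (47.8%), 37 in early erythroid-like (60.1%) and 37 in late erythroid-like cells (83.2%).

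**Figure D2:**
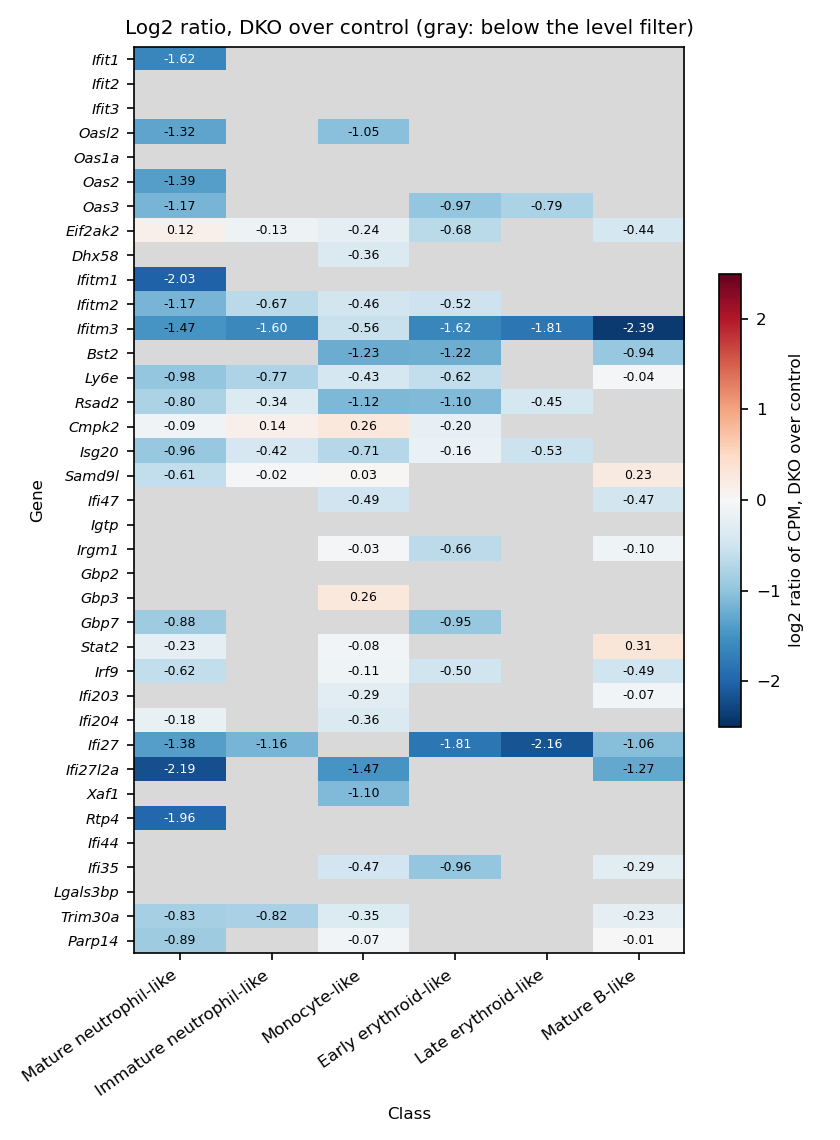
Log2 ratio of CPM, DKO over control, of the 37 genes (rows) in the 6 compared classes (columns), with gray where a gene did not pass the level filter. Of the 89 colored fields, 46 lie at or below the 1.5-fold line and 0 at or above it, and the Ifitm3 row is filled and negative in all 6 classes, from -0.56 in monocyte-like to -2.39 in mature B-like cells.

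Mature neutrophil-like cells, named from Retnlg, Mmp8 and other late granule and receptor genes, held 1859 control and 2078 DKO cells. Of 22 passing genes, 18 were at least 1.5-fold lower and 0 higher, while 4.21% of the 4534 genes tested in this class were that much lower and 5.56% that much higher. The median log2 ratio was -0.97, beside 0.07 over all genes. The lowest was Ifi27l2a, a relative of Ifi27, at 491 control and 107 DKO CPM (log2 ratio -2.19, interval -2.30 to -2.08). Ifitm1 was at 1210 and 297 CPM (-2.03). Rtp4, a chaperone of receptors that also restrains RNA viruses, was at 120 and 30.8 CPM (-1.96). Ifit1 was at 35.9 and 11.6 CPM (-1.62), and Ifitm3 at 1131 and 409 CPM (-1.47).

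The 5 highest ratios in mature neutrophil-like cells were near 0 with 1 exception, Samd9l, a restriction factor of poxviruses, at 231 and 151 CPM (-0.61, interval -0.73 to -0.50). Eif2ak2, which encodes the RNA-activated kinase PKR, was at 38.4 and 41.8 CPM (0.12, interval -0.12 to 0.37). Cmpk2, a mitochondrial nucleotide kinase that lies beside Rsad2 in the genome, was at 50.5 and 47.5 CPM (-0.09, -0.31 to 0.13). Ifi204 was at 63.9 and 56.3 CPM (-0.18, -0.38 to 0.02). Stat2 was at 23.2 and 19.8 CPM (-0.23, -0.56 to 0.11) and its partner Irf9 at 59.8 and 38.8 CPM (-0.62, -0.85 to -0.40). Rsad2 was 111.7 and 64.2 CPM, so that these neighbours had log2 ratios of -0.80 and -0.09. Free RNA could make up at most 25.9% of control and 23.2% of DKO counts in this class by hemoglobin, and for Ly6e and Isg20 that limit allowed 44.4 and 71.9% of the control level. The share that the limit allowed for the other genes, Rsad2 included, is not given here. Ratios with free RNA subtracted are not given here for single genes of this class, Rsad2 and Cmpk2 included.

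Immature neutrophil-like cells, with the granule genes Camp, Ngp and Ltf, held 1117 and 772 cells. Of 10 passing genes, 5 were at least 1.5-fold lower and 0 higher, with a background of 1.04% lower and 7.49% higher. The median was -0.54, beside 0.20 over all genes. Ifitm3 was at 580 and 191 CPM (-1.60, interval -1.68 to -1.53), Ifi27 at 82.5 and 36.9 CPM (-1.16) and Trim30a, a brake on inflammatory signaling, at 36.2 and 20.5 CPM (-0.82). Ly6e was at 35.3 and 20.6 CPM (-0.77) and Ifitm2 at 444 and 278 CPM (-0.67). The highest were Cmpk2 at 24.5 and 26.9 CPM (0.14), Samd9l at 110.6 and 108.7 CPM (-0.02) and Eif2ak2 at 29.9 and 27.3 CPM (-0.13), whose intervals all included 0. Rsad2 (-0.34) and Isg20 (-0.42) completed the 5 highest. After subtraction of free RNA, which could be 20.6 and 20.8% of counts in this class, the ratio of Ly6e was 0.22 in place of -0.77.

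Monocyte-like cells, with Ly6c2, Ccr2 and Fn1, held 1002 and 506 cells and had the largest number of passing genes, 23. Of these, 6 were at least 1.5-fold lower and 0 higher, beside 1.66% of all genes lower and 4.11% higher. The median was -0.36, beside 0.11 over all genes. Ifi27l2a was at 1175 and 424 CPM (-1.47), Bst2 at 193.6 and 82.2 CPM (-1.23), Rsad2 at 33.2 and 15.2 CPM (-1.12), the apoptosis factor Xaf1 at 40.6 and 18.8 CPM (-1.10) and Oasl2 at 43.9 and 21.1 CPM (-1.05). The highest upper bound of their 5 intervals was -0.79, that of Oasl2. Free RNA could make up at most 8.19% of control and 4.14% of DKO counts in this class by neutrophil genes. Ratios with free RNA subtracted are not given here for single genes of this class, Rsad2 included. The 5 highest were Cmpk2 at 29.4 and 35.3 CPM (0.26, interval 0.02 to 0.51), Gbp3 at 18.5 and 22.1 CPM (0.26, -0.06 to 0.56), Samd9l at 52.4 and 53.5 CPM (0.03), Irgm1 at 26.4 and 25.8 CPM (-0.03) and Parp14 at 73.2 and 69.4 CPM (-0.07). Stat2 (-0.08) and Irf9 (-0.11) also had intervals that included 0.

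**Figure D3:**
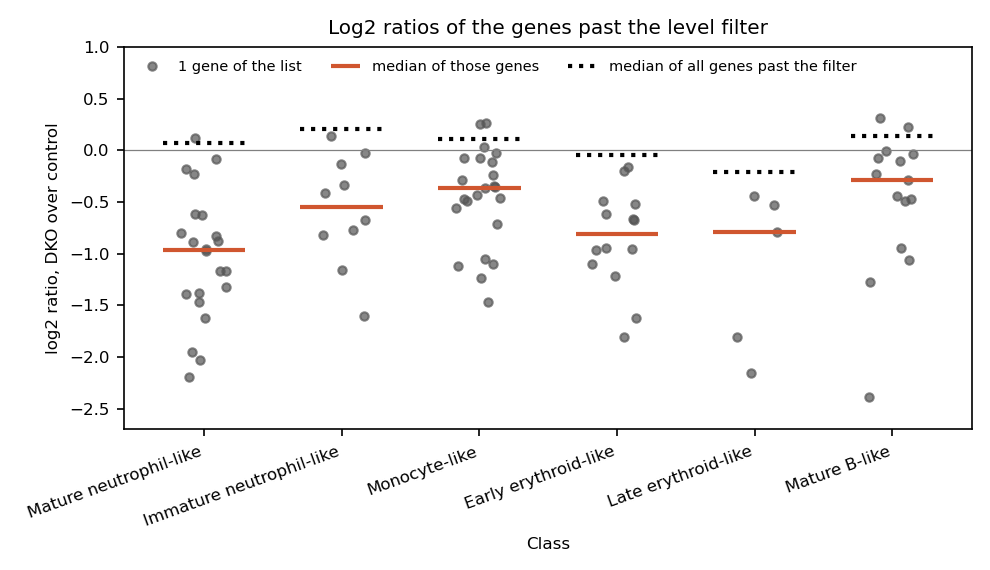
Log2 ratio, DKO over control (y axis), of each passing gene (points) in the 6 compared classes (x axis), with the median of those genes (solid line) and of all genes past the same filter (dotted line). The solid line lies under the dotted line in each class, by the most in mature neutrophil-like cells (-0.97 against 0.07) and by the least in mature B-like cells (-0.29 against 0.14).

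Early erythroid-like cells, with Car1, Klf1 and Epor, held 1934 and 1903 cells. Of 14 passing genes, 10 were at least 1.5-fold lower and 0 higher, beside 3.76% of all genes lower and 0.677% higher, and the median was -0.81, beside -0.04 over all genes. Ifi27 was at 170 and 48.4 CPM (-1.81, interval -1.92 to -1.71) and Ifitm3 at 159 and 51.5 CPM (-1.62). Bst2 was at 30.5 and 13.1 CPM (-1.22), Rsad2 at 189.9 and 88.5 CPM (-1.10) and Oas3 at 33.4 and 17.0 CPM (-0.97). Isg20 differed little, at 464 and 415 CPM (-0.16), as did Cmpk2 at 50.5 and 44.0 CPM (-0.20). Irf9 was at 42.9 and 30.5 CPM (-0.50), and Ifitm2 (-0.52) and Ly6e (-0.62) completed the 5 highest. Across the 5 clusters of this class the median ran from -0.98 to 0.43. The cluster at 0.43 had 4 passing genes, of which 1 was at least 1.5-fold lower and 2 higher, in 140 and 165 cells.

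Late erythroid-like cells were the largest class, with 5745 and 4489 cells, and 84.9 and 87.7% of their UMIs came from hemoglobin genes. Only 5 of the 37 genes passed, and 3 of them were at least 1.5-fold lower and 0 higher. In this class 27.2% of the 685 genes tested were also that much lower and 1.9% higher, so the count alone said less than in the other classes. Ifi27 was at 137 and 30.7 CPM (-2.16, interval -2.25 to -2.06), Ifitm3 at 42.5 and 12.1 CPM (-1.81) and Oas3 at 30.7 and 17.7 CPM (-0.79). Isg20 was at 590 and 408 CPM (-0.53) and Rsad2 at 513 and 376 CPM (-0.45). The median was -0.79, beside -0.21 over all genes. Across the 9 clusters of this class it ran from -1.71 to -0.71, and the median over all genes from -0.77 to -0.15. In the cluster at -0.71 the median over all genes was -0.56. Neutrophil genes, which erythroid cells should lack, summed to 902 CPM in late erythroid-like cells of the control against 431 CPM in those of the DKO mouse, and to 1377 against 724 CPM in the early class. These counts were thus lower in the DKO library in the same direction as the interferon genes. Ratios with free RNA subtracted are not given here for single genes of these classes. By this measure free RNA could be at most 1.79% of the control level of Ifi27, 2.46% of that of Oas3 and 23.6% of that of Ifitm3.

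The libraries differed in the hemoglobin share of their late erythroid-like cells. Of control late erythroid-like cells, 3624 had a hemoglobin share of 75 to 90% and 1400 a share of at least 90%, whereas the DKO library had 1399 and 2619. The levels of the genes followed this share. Over early and late erythroid-like cells together, Rsad2 in the control library was at 49.2 CPM in cells under 15% hemoglobin, at 679 CPM at 40 to 75% and at 234 CPM at 90% or more. In the DKO library its values at the same shares were 25.5, 323 and 222 CPM. Between these, at 15 to 40%, it was at 193 and 57.0 CPM (log2 ratio -1.76), while at 75 to 90% it was at 520 and 535 CPM (0.04, interval -0.00 to 0.09). At 90% or more the ratio was -0.07, with an interval that included 0. These ranges pool early and late erythroid-like cells, so they also carry a different mix of the classes within a range. In late erythroid-like cells alone, Rsad2 was at 1049 and 751 CPM at 40 to 75% (-0.48, interval -0.55 to -0.41, in 630 and 419 cells), at 521 and 536 CPM at 75 to 90% (0.04) and at 234 and 222 CPM at 90% or more (-0.07). At 15 to 40% these late cells had 38 and 21 Rsad2 UMIs, a ratio of 1.09 (interval 0.22 to 1.87), in only 15 and 10 cells. The ratio over the whole late class (-0.45) therefore also carries the larger share of DKO cells in the range of at least 90%, where its level was lower in both libraries than at 40 to 90%.

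In the ranges that pool early and late erythroid-like cells, Ifi27, Ifitm3 and Isg20 stayed lower in the DKO library at every hemoglobin share. The log2 ratio of Ifi27 lay between -2.02 and -1.64 over the 5 ranges, with 223 and 54.9 CPM at 40 to 75%. Ifitm3 ranged from -2.10 to -1.07, and Isg20 from -0.51 to -0.22. Oas3 was at 56.0 and 27.3 CPM at 40 to 75% (-1.04), but at 10.6 and 11.1 CPM at 90% or more (0.05, interval -0.31 to 0.45). When late erythroid-like cells were matched on hemoglobin share with equal weight for the 4 ranges from 15%, the median of the 5 genes was -0.37, beside -0.08 over all genes, and 1 of the 5 stayed past 1.5-fold. The lowest range held only 15 control and 10 DKO cells. Without it, a choice made after seeing the data, the median was -0.58, beside 0.02 over all genes, with 2 of the 5 past 1.5-fold, Ifi27 (-1.75) and Ifitm3 (-1.40).

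**Figure D4:**
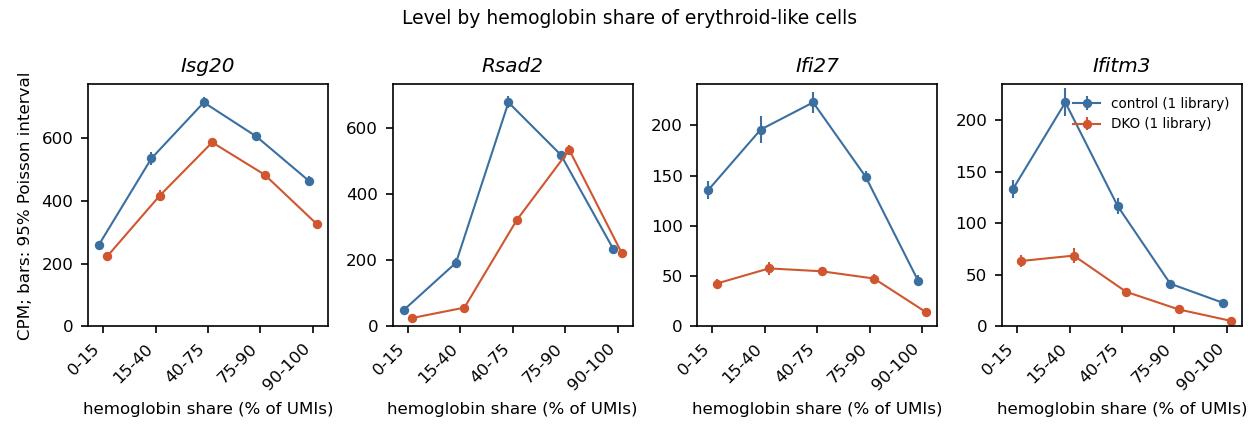
Levels of Isg20, Rsad2, Ifi27 and Ifitm3 (y axis, CPM, 1 panel each) by the hemoglobin share of early and late erythroid-like cells (x axis, % of a cell's UMIs), with 95% Poisson intervals, for the control and DKO library. The Rsad2 lines are apart at 40 to 75% (679 against 323 CPM) and meet at 75 to 90% (520 against 535 CPM), while in late cells alone the values at 40 to 75% were 1049 against 751 CPM, and the Ifi27 lines stay apart throughout.

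Mature B-like cells, with Ighd, Fcer2a and Cr2 among their markers, held 1152 and 682 cells. Of 15 passing genes, 4 were at least 1.5-fold lower and 0 higher, beside 3.48% of all genes lower and 8.25% higher. The median was -0.29, beside 0.14 over all genes. With no level filter it was -1.01 over the 37 genes, beside 0.04 over all genes. Ifitm3 was at 34.5 and 6.25 CPM (107 and 16 UMIs, -2.39), Ifi27l2a at 338 and 139.5 CPM (-1.27), Ifi27 at 61.6 and 29.3 CPM (-1.06) and Bst2 at 47.7 and 24.6 CPM (-0.94). Free RNA could account for up to 33.5% of the control and 97.3% of the DKO level of Ifitm3, so its DKO level was not distinguishable from free RNA. Irf9 was at 39.3 and 27.8 CPM (-0.50, interval -0.95 to -0.07). Stat2 was at 45.1 and 55.9 CPM (0.31, -0.04 to 0.65) and Samd9l at 165 and 193 CPM (0.23, 0.04 to 0.41). Parp14 (-0.01), Ly6e (-0.04) and Ifi203 (-0.07) completed the 5 highest, and Ly6e was among the most abundant of the list at 1327 and 1291 CPM. When only barcodes above a high depth threshold were kept, this class had 44 and 29 cells and 4 passing genes. Their median was 0.28, beside 0.32 over all genes, with 1 gene at least 1.5-fold higher.

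The size of the difference varied by role. Over all cells the roles ranged from the mitochondrial and cell death group (Ifi27, Ifi27l2a and Xaf1), at 343 and 98.9 CPM with a log2 ratio of -1.79, to the nucleotide and RNA effectors (Rsad2, Cmpk2, Isg20 and Samd9l), at 515 and 452 CPM with a ratio of -0.19. The membrane group was at 1492 and 727 CPM (-1.04), the double-stranded RNA group of synthetases and sensors at 112 and 59.3 CPM (-0.92) and the IFIT group at 24.7 and 10.5 CPM (-1.23). The PYHIN pair was at 71.6 and 44.6 CPM (-0.68), the GTPases at 79.7 and 52.9 CPM (-0.59) and the signaling pair Stat2 and Irf9 at 49.1 and 35.4 CPM (-0.47). These whole-marrow values also carry the different mix of classes in the libraries.

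Low-abundance members were seen best over all cells, but these values also carry the different mix of classes. In the control, Ifi44 peaked in plasmacytoid dendritic-like cells (469 control and 145 DKO cells). Ifit2, Ifit3 and Oas1a peaked in conventional dendritic-like cells (194 and 113), and Igtp in megakaryocyte-like cells (355 and 104). Gbp2 peaked in mature neutrophil-like cells, which were more numerous in the DKO library (1859 and 2078). The part of the mix in the ratios was not tested. Ifi44 had 381 control and 63 DKO UMIs (-2.54), and Oas1a had 822 and 139 (-2.52). Ifit3 had 683 and 178 UMIs (-1.90). Ifit2 had 898 and 572 (-0.61), Gbp2 566 and 390 (-0.50), and Igtp 1295 and 924 (-0.45). Of the last 400 bases of their transcripts, where 3' reads fall, Oas1a shared 43.6% of its 50-base words with Oas1g, Ifitm2 25.4% with pseudogenes, Ifit3 19.1% with Ifit3b and Ifitm3 12.3% with other genes. How the counting placed reads of shared words is not given in the sources used here, so the values of these 4 genes are uncertain to that extent. In all, 9 of the 37 genes shared at least 1 such word.

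Conventional dendritic-like cells, with 194 and 113 cells, were too few for the comparison but carried several of these genes at their peak. Ifit3 was at 105.9 and 25.3 CPM there (139 and 27 UMIs, -2.03), Ifit2 at 51.8 and 14.97 CPM (-1.72) and Oas1a at 31.2 and 10.3 CPM (-1.51). Gbp2 went the other way, with 31 and 46 UMIs (23.6 and 43.1 CPM, 0.85, interval 0.18 to 1.57). In megakaryocyte-like cells, 355 and 104 in number, the related GTPases Igtp and Ifi47 were higher in the DKO library. Igtp had 311 and 305 UMIs, 232 and 497 CPM, a ratio of 1.10 with an interval from 0.87 to 1.33. Ifi47 had 204 and 143 UMIs, 152 and 233 CPM, a ratio of 0.62 with an interval from 0.30 to 0.93. These are 3 of the 6 instances, in the 17 classes and with no level filter, in which a gene was at least 1.5-fold higher in the DKO library with an interval above 0. The others were Gbp2 and Stat2 in pro-B and large pre-B-like cells and Cmpk2 in small pre-B and immature B-like cells, with 4 to 67 UMIs per library. They were named after their values were seen.

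Single cells were compared after each was thinned to 2000 UMIs, with shallower cells left out. UMIs of 5 or more of the 37 genes were present in 832 of 1426 control mature neutrophil-like cells (58.3%, exact interval 55.7 to 60.9%) and in 369 of 1911 DKO cells (19.3%, 17.6 to 21.2%). Without thinning the shares were 76.1 and 42.9%. Monocyte-like cells had 74.4 and 46.6% (98.3 and 95.7% without thinning), and late erythroid-like cells 2.97 and 0.82% (14.4 and 5.32%). The thinning left out 433 control and 167 DKO mature neutrophil-like cells. The shares depend on where the limit of 5 genes lies: 250 control and 303 DKO mature neutrophil-like cells had exactly 4. None of the 17 classes is known to lack these genes, so no background share could be taken from a class that should not express them. In the 15 classes with at least 50 cells left in each library, the DKO share was lower in all 15, and the intervals overlapped in basophil or mast-like and T-like cells. Without thinning the order was the other way in 4 of the 15, namely basophil or mast-like, granulocyte-monocyte progenitor-like, plasmacytoid dendritic-like and T-like cells. Median depth was greater in the DKO library in these 4 classes. It was also greater in classes whose order held, such as monocyte-like cells (8637.5 and 11106 UMIs), but not in macrophage-like cells (1076 and 907 UMIs).

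**Figure D5:**
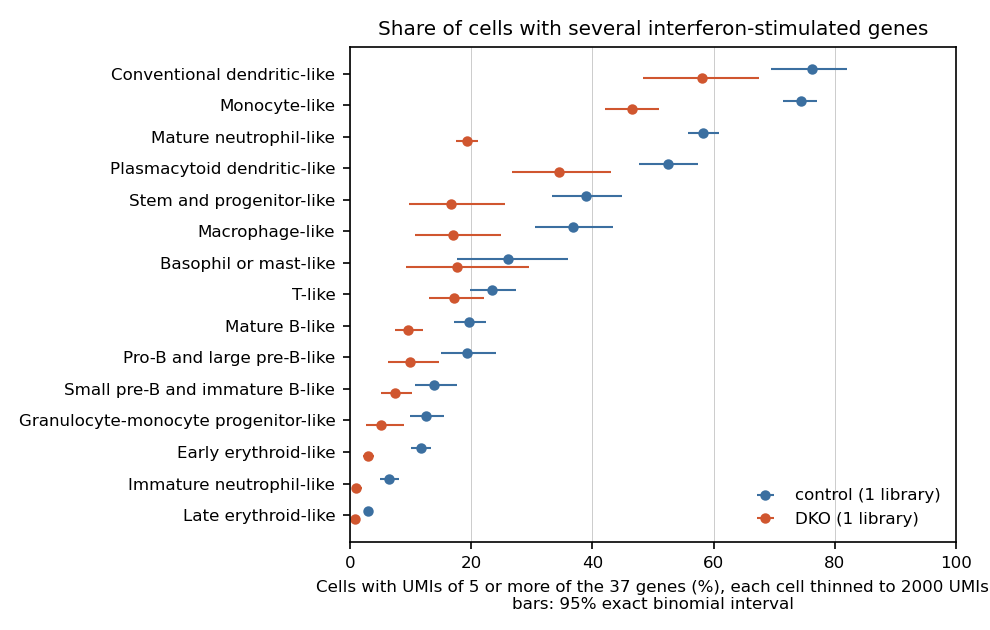
Share of cells with UMIs of 5 or more of the 37 genes (x axis, %) in 15 classes (y axis), each cell thinned to 2000 UMIs, as points for the control and DKO library with 95% exact binomial intervals. The DKO point lies left of the control point in each class, and in mature neutrophil-like cells it is at 19.3% against 58.3%.

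The rest of the pathway was read from lists of genes that are not among the 37. None of the 10 ligand genes, Ifnb1 and several Ifna genes included, passed the filter in any of the 6 classes. Of the 6 receptor genes, none was at least 1.5-fold lower in any class, and in immature neutrophil-like cells 1 of 5 was higher, Ifnlr1 at 49.1 and 75.1 CPM (0.61). In monocyte-like cells Ifnar1 was at 43.5 and 60.3 CPM (0.47) and Ifnar2 at 257 and 272 CPM (0.09). Among the kinases and factors reported here, Irf7, itself induced by interferon, was the 1 of 10 that was at least 1.5-fold lower in monocyte-like cells, at 38.8 and 15.7 CPM (-1.30), and the 1 of 6 in mature neutrophil-like cells, at 37.1 and 14.7 CPM (-1.33). The 5 brakes of the pathway had 1 member at least 1.5-fold lower in the 6 classes, Socs3 in mature neutrophil-like cells at 77.8 and 42.4 CPM (-0.87). Of the 9 measured sensors, 2 of 4 passing were lower in mature neutrophil-like cells, Zbp1 at 32.6 and 8.36 CPM (-1.95) and Ifih1 at 33.9 and 19.0 CPM (-0.84). In monocyte-like cells 2 of 8 were lower, Zbp1 at 71.9 and 32.6 CPM (-1.14) and the targeted Ddx41, which was also the 1 of 4 in mature B-like cells, and in early erythroid-like cells Ifih1 was the 1 of 2. Among 33 further interferon-stimulated genes, 7 of 13 passing were at least 1.5-fold lower in mature neutrophil-like cells, where 4.21% of all genes were. The count was 2 of 16 in monocyte-like cells (1.66% of all genes), 2 of 16 in mature B-like (3.48%), 3 of 5 in early erythroid-like (3.76%), 3 of 3 in late erythroid-like (27.2%) and 0 of 7 in immature neutrophil-like cells (1.04%), and 0 were higher in any of the 6. Isg15, which belongs to this list, was at 730 and 256 CPM in late erythroid-like cells (-1.51) and at 24.7 and 21.4 CPM in immature neutrophil-like cells (-0.21, interval -0.47 to 0.05).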

How the data were processed

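Bone marrow of 1 control and 1 DKO mouse was profiled with Chromium 3' chemistry, version 3. The deposited matrices hold counts of UMIs per gene and barcode, made by the authors with Cell Ranger 7.1.0 on mm10 (version per the file headers, build per the labels). The annotation is not given in the sources used here. The deposited control counts covered all 1194299 barcodes with a UMI and the deposited DKO counts 14142 called barcodes, of at least 500 UMIs.

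Control cells were called here: barcodes above 4869 UMIs (the 99th percentile of the top 3000, divided by 10), plus those of at least 500 UMIs that differed from the droplets of at most 100 UMIs (Monte Carlo with 10000 draws, false discovery rate 0.01). This gave 19232 control cells. Cells over 20% mitochondrial UMIs (174 control, 215 DKO) and doublets by Scrublet as run in scanpy 1.11.5, with each library's automatic threshold (497 and 198), were left out. The 117692836 control and 114830668 DKO UMIs kept set the counting precision. Clustering (2000 variable genes without the interferon and pathway genes, 30 components, 15 neighbors, Leiden at resolution 2.0) was run over both libraries together. Clusters were named from fixed markers, and 1147 control and 906 DKO cells stayed unnamed. Clusters named neutrophil or B with over 50% hemoglobin UMIs were set aside, a choice made after seeing the data. Cell classes were rebuilt here, so class sizes can differ from those of the study.

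UMIs were summed per class and library and divided by the class total (CPM, not divided by length, since each transcript is counted once at its 3' end). Log2 ratios had 1 count added. Their intervals were exact conditional binomial ones and those of levels exact Poisson ones, and they cover counting error only. Free RNA was bounded from genes a class should lack and the profile of control droplets of at most 100 UMIs, which was also used for the DKO library. Scripts were tested on simulated counts (Python 3.11.15, numpy 2.4.6, scipy 1.17.1, pandas 2.3.3). In each compared class the text gives the 5 genes with the lowest and the 5 with the highest ratio, and Stat2 and Irf9 where they passed. Across classes it gives the highest class of some of the genes. Members and lists were chosen with earlier results of these data known. Alternatives were another scaling, filters, doublets kept, resolution 1.0, free RNA subtracted, cells weighted equally, thinning to 1000 UMIs and matching on hemoglobin share. Of the kinases and factors, 1 gene is not reported here.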

Additional observations from a re-analysis of the deposited data

Results flagged for a closer look

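Ifi47, an immunity-related GTPase, had opposite signs in a pair of classes, each with an interval that lay on 1 side of 0. In conventional dendritic-like cells it had 121 control and 34 DKO UMIs, 92.2 and 31.8 CPM, a log2 ratio of -1.51. In megakaryocyte-like cells it had 204 and 143 UMIs, 152 and 233 CPM, a ratio of 0.62. The difference was not tested, since each genotype had 1 library. The megakaryocyte-like cells were 355 and 104 in number with median depths of 1265 and 860 UMIs, and hemoglobin genes made up 18.0% of their control and 8.62% of their DKO UMIs. The part of these differences in the Ifi47 values was not tested.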

How the results depend on the processing

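No paired analysis was possible because there was 1 library per genotype. Of the recomputed class medians and counts over classes, 80 stayed within the counting spread of a median or 1.5 times of a count, and 18 did not. The late erythroid-like median (-0.79) was -1.01 when scaled without hemoglobin genes, beside -0.24 over all genes at that setting. It was -0.58 with median-ratio scaling. At 50 CPM or more it was -0.53, beside -0.22 over all genes, and with no level filter -1.63, beside -0.89. Matched on hemoglobin share it was -0.37, beside -0.08 over all genes, and matched from 40% on -0.58, beside 0.02. The mature B-like median (-0.29) was 0.28 with barcodes above the depth threshold only, beside 0.32 over all genes. With no filter it was -1.01, beside 0.04. The immature neutrophil-like median (-0.54) was -0.83 with doublets kept, beside 0.19 over all genes. It was -0.92 at 50 CPM or more, beside 0.20, and -0.85 with no filter, beside 0.15. The mature neutrophil-like median (-0.97) was -1.35 with free RNA subtracted, beside 0.11 over all genes. It was -1.17 at 50 CPM or more, beside 0.11, and -1.17 with no filter, beside -0.08. The early erythroid-like median (-0.81) was -1.21 with no filter, beside -0.14 over all genes. The 46 pairs that were lower became 23 at 50 CPM or more and 162 with no filter, by the number of genes tested. The 0 that were higher became 1 with barcodes above the depth threshold only. No share of all genes past 1.5-fold is given here for these settings. With no filter the late erythroid-like median over all genes was itself past 1.5-fold, so the 162 is no result about the listed genes. Median-ratio scaling sets the median of all genes to 0, a shift of -0.20 in immature neutrophil-like and 0.21 in late erythroid-like cells. Of the 89 pairs of a gene and a class, 68 kept their ratio when free RNA was subtracted, 20 moved and 1 reversed. Ly6e in immature neutrophil-like cells was 0.22 with free RNA subtracted. Except where a filter or a smaller number of cells is named, the cause was not tested. The level filter limited the low genes: 7 of 37 passed it in none of the compared classes.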
